A study of Mus musculus with 6 samples.

Results

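Mutually exclusive exon pairs were examined in the hippocampus of mice given a virus against hnRNP D-like protein (L-DL, encoded by Hnrnpdl), an RNA-binding protein of nuclear speckles. In such a pair 2 neighbouring exons compete, and a transcript carries the upstream (5′) exon or the downstream (3′) exon between the same outer exons. The members were all 3218 events of this kind in the deposited splicing table, out of 40961 events of 5 types. They were divided by exon length into 94 events whose exons were equally long and 3124 events whose exons were not. The 94 events stood for 87 exon pairs in 80 genes, and the 3124 events for 2927 pairs in 1984 genes, so that some pairs were listed with more than 1 set of outer exons.

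Hippocampal RNA of male C57BL/6 J mice was sequenced in 6 libraries, 3 per group. The labels number them as replicates without saying that each was a separate mouse, so p-values measure the spread between libraries, which may be technical. At 8 weeks of age, control mice received an adeno-associated virus with a control shRNA in hippocampal area CA1 on both sides, and L-DL KD mice a virus with 4 shRNAs against L-DL in tandem. The labels call the controls wild type. They call the other group both a knockdown and hnRNP DL-/-, while the methods describe a knockdown only. The shRNAs were driven by the H1 promoter, which is not restricted to a cell type, whereas the green reporter of the virus was driven by the neuronal CamkIIα promoter. The control virus was given at a higher titre. The labels give the tissue as hippocampus, not CA1.

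Mutually exclusive splicing is a way for a gene to swap a module of its protein without moving the reading frame. The exons of the classical pairs arose by duplication, have the same or nearly the same length and encode alternative versions of 1 segment. In neurons the best known case is the flip/flop module of the AMPA receptors, the main fast glutamate receptors, where the choice of exon sets how quickly the channel desensitizes. Sodium and calcium channels, SNAP-25, pyruvate kinase, JNK kinases, tropomyosins and α-actinins hold other such pairs. An event of the splicing table can be of another kind, namely 2 adjacent cassette exons of unrelated sequence that are each included or skipped.

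The sequences of 5 pairs are given here because the results below turn on them. All exons are coding, coordinates are those of GRCm38 with the strand, and the sequences, from GENCODE transcripts of that build, run 5′ to 3′. In pairs of equal length, capitals mark the positions at which the 2 exons differ when they are laid side by side without gaps. In the AMPA receptor genes the 5′ exon is flop and the 3′ exon is flip, and 36 of 115 bases differed in Gria1 and in Gria2.
Gria1 5′ exon (flop), chr11:57309769-57309883, plus strand: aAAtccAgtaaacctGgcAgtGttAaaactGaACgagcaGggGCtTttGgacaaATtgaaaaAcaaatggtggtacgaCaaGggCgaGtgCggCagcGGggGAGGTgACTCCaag
Gria1 3′ exon (flip), chr11:57310608-57310722, plus strand: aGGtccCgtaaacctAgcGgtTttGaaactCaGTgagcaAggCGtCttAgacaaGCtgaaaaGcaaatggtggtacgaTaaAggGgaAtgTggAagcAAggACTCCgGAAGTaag
Gria2 5′ exon (flop), chr3:80691320-80691434, minus strand: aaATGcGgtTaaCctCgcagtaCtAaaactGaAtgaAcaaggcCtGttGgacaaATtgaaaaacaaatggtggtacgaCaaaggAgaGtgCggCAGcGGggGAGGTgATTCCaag
Gria2 3′ exon (flip), chr3:80690404-80690518, minus strand: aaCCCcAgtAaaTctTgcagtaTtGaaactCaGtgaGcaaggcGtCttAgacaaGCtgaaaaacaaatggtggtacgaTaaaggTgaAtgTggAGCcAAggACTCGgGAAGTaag
In U2af1, which encodes the small subunit of the U2AF splicing factor, 23 of 67 bases differed.
U2af1 5′ exon, chr17:31652502-31652568, minus strand: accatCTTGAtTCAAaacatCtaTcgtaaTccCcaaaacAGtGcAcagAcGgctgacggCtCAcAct
U2af1 3′ exon, chr17:31651646-31651712, minus strand: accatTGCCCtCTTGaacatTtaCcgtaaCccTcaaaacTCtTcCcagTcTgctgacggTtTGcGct
In Snap25, which encodes a SNARE protein of synaptic vesicle fusion, 31 of 118 bases differed.
Snap25 5′ exon, chr2:136769743-136769860, plus strand: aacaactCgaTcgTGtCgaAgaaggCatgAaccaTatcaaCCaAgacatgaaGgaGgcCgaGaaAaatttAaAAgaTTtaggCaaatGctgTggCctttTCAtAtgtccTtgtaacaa
Snap25 3′ exon, chr2:136770057-136770174, plus strand: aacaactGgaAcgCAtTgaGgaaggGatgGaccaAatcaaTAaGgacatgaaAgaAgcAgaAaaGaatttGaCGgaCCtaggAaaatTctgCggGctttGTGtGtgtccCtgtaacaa
P4ha2, a subunit gene of the collagen prolyl 4-hydroxylase, is shown as a pair of unequal length. Its exons of 60 and 66 bases lie 48 bases apart, and no annotated transcript held both.
P4ha2 5′ exon, chr11:54126238-54126297, plus strand: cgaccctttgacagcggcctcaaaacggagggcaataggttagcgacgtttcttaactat
P4ha2 3′ exon, chr11:54126346-54126411, plus strand: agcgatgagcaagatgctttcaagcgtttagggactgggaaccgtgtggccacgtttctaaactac

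The RNA count of the targeted gene did not mark the groups. This count takes the long and short isoforms together, whereas the study showed its knockdown by immunoblot on the protein of the long isoform, L-DL. Hnrnpdl was counted at 176, 184 and 171 CPM (gene counts scaled to library size) in the control libraries and at 217, 150 and 173 CPM in those labelled L-DL KD, so that the groups overlapped. Its log2 fold change was 0.03 (SE 0.12), with an adjusted p of 0.898 in edgeR's quasi-likelihood test. The groups below are therefore the labelled groups, and "L-DL KD" stands for the libraries labelled so. The gene counts differed widely between them. Of 17621 genes tested, 5379 passed an adjusted p of 0.05 (30.5%), with 2743 higher in L-DL KD (15.6%) and 2636 lower (15.0%). All 12 microglial markers were higher, and their summed level was 1437 to 1795 CPM in the controls and 3014 to 3925 CPM in L-DL KD. Of 11 neuronal markers 8 were lower and 2, the neurofilament genes Nefl and Nefm, were higher (4561 to 4909 against 3494 to 4040 CPM). Of 5 markers of CA1 pyramidal cells 4 were lower (409 to 468 against 202 to 267 CPM), and of 4 markers of dentate granule cells 1 was lower (375 to 412 against 361 to 379 CPM). Of 9 astrocyte markers 2 were higher and 4 lower, of 8 oligodendrocyte markers 1 was higher, and of 5 endothelial markers 2 were higher. The 5 choroid plexus markers passed in neither direction, but their sum ran from 436 to 4600 CPM in the controls and from 29.5 to 5147 CPM in L-DL KD. No marker was at 0 in all libraries. In bulk tissue fewer cells of a type and less RNA per cell cannot be told apart, and neither can a change of splicing within a cell type and a change in the mix of cell types. The part of these marker differences in the results below was not tested.

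PSI (percent spliced in, written as a fraction) is here the share of the form with the 5′ exon, after division of the junction read counts of each form by its effective length. A PSI of 1 means that only the 5′ exon was seen, and ΔPSI is the mean PSI in L-DL KD minus that in control. Each library held 609390 to 697324 junction counts over these events. After a filter of at least 20 counts per library on average, and at least 1 of each form, 2644 events were tested (75 of equal and 2569 of unequal length).

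Listed pairs of equal and of unequal length differed in structure. For 46 of the 87 equal pairs (52.9%) no annotated transcript joined both exons, against 184 of 2927 unequal pairs (6.29%). The exons of equal pairs lay closer together, with a median distance of 789 against 2720 nt. Their sequences were more alike. Median identity in an end-to-end alignment was 62.5% for equal pairs and 44.0% for unequal pairs, and 31 of 87 equal pairs (35.6%) exceeded 65% identity, against 5 of the 2919 unequal pairs with sequence (0.171%). Both exons were coding in 79 equal pairs (90.8%) and in 2396 unequal pairs (81.9%). An exchange of exons keeps the reading frame when the lengths differ by a multiple of 3, which held for all equal pairs by construction and for 1246 unequal pairs (42.6%).

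Unequal pairs were mostly neighbouring cassette exons. In 2520 of the 2927 unequal pairs (86.1%) both exons were also listed as skipped exons in the same deposited file, against 55 of 87 equal pairs (63.2%). In 2541 unequal pairs (86.8%), but 37 equal pairs (42.5%), a skipped-exon event used the partner exon as its flank, so that both exons sat in 1 transcript. In these events PSI gathered near the middle. Where an annotated transcript held both exons, 1061 of 2489 tested events (42.6%) had a control PSI between 0.4 and 0.6. Where none did, the count was 27 of 155 (17.4%). A transcript with both exons can give reads from the upstream flank into the 5′ exon and from the 3′ exon into the downstream flank. The share of such reads in the counts was not tested, so a PSI near 0.5 in these events does not show that the exons exclude each other. Pairs with no shared transcript were used more unevenly, with control PSI above 0.9 in 34 and below 0.1 in 31 of 155 events.

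**Figure D1:**
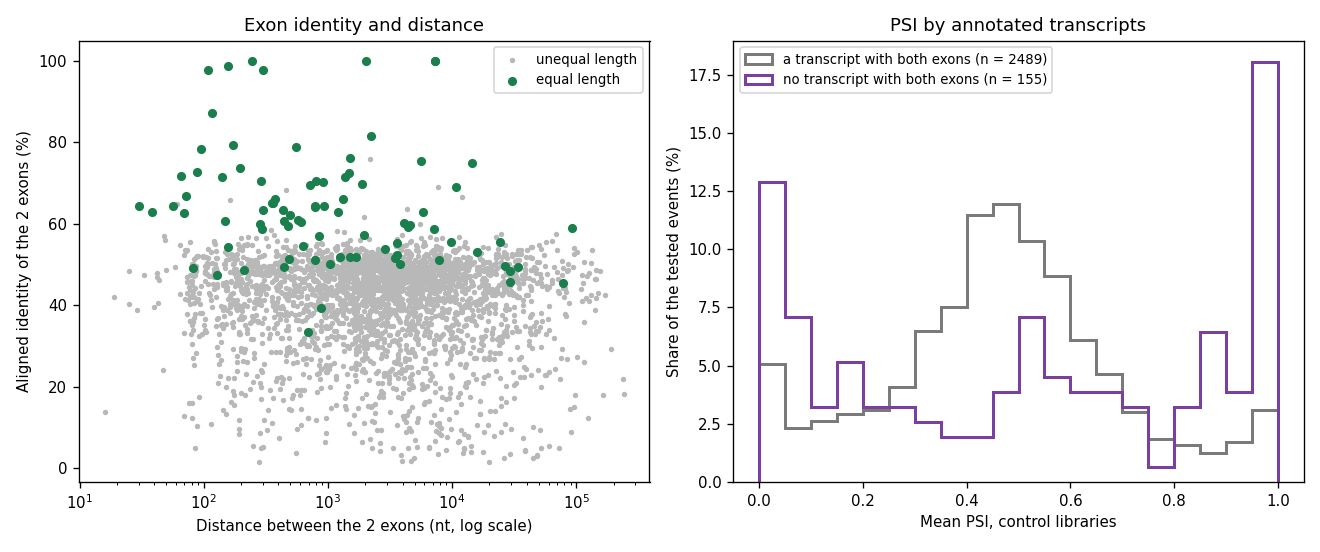
Left, identity of the 2 exons of each pair in an end-to-end alignment (%) against the distance between them (nt, log scale), with equal pairs in green and unequal pairs in grey. Right, distribution of the mean control PSI over tested events, as a share of the events (%), for 2489 events whose exons share an annotated transcript and 155 whose exons do not. Equal pairs make up most points above 65% identity, and events with a shared transcript gather at a PSI near 0.5.

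No mutually exclusive event passed an adjusted p of 0.05 in edgeR's quasi-likelihood test, in which p was adjusted over all 18829 tested events of the 5 types, 48 of which passed (0.255%). The call depended on the filter and tool. DESeq2 called 4 events, in Coq8b, Tpd52, Srgap3 and Rbfox1, a stricter filter on counts left 1938 events of which 32 passed, and limma on the log ratios called 0. At an unadjusted p under 0.05, 117 of 2644 events were below (4.43%), with PSI higher in L-DL KD in 73 and lower in 44. Limma placed 135 events there and DESeq2 99. Over all 5 types the share was 13.3%, with 4.96% higher and 8.3% lower, so the share among mutually exclusive events was under that background. At an unadjusted p under 0.001 there were 9 events, against 0.977% over all types.

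By length class the shares differed. Of the 75 tested equal-length events, 17 had an unadjusted p under 0.05 (22.7%; 12 higher and 5 lower), while of the 2569 unequal-length events 100 did (3.89%; 61 higher and 39 lower). Mapk10 and Pfkp, both among the 17, met the filter on their rarer exon only through the group with more counts of it. Without the second-listed control library the equal-length count was 11 of 77. The libraries of both groups did not overlap in 25 equal-length events (33.3%) and 365 unequal-length events (14.2%), beside 18.4% over all types. The median size of ΔPSI was closer, 0.0399 for equal-length, 0.0339 for unequal-length and 0.0297 for all events. Depth moved with length class, at a median of 138 against 109 counts per library. In the events with 300 counts or more, 8 of 22 equal-length and 18 of 487 unequal-length events had an unadjusted p under 0.05. With 50 to 100 counts these were 4 of 19 and 32 of 644, and with 20 to 50 counts 0 of 13 and 17 of 544. Among equal-length events, 13 of the 37 without a shared transcript (35.1%) and 4 of the 38 with one (10.5%) were below 0.05. Among unequal-length events these were 20 of 118 (16.9%) and 80 of 2451 (3.26%). These shares are descriptions of the events and were not tested against each other, since events of a gene share reads and the events of a class share cell types.

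**Figure D2:**
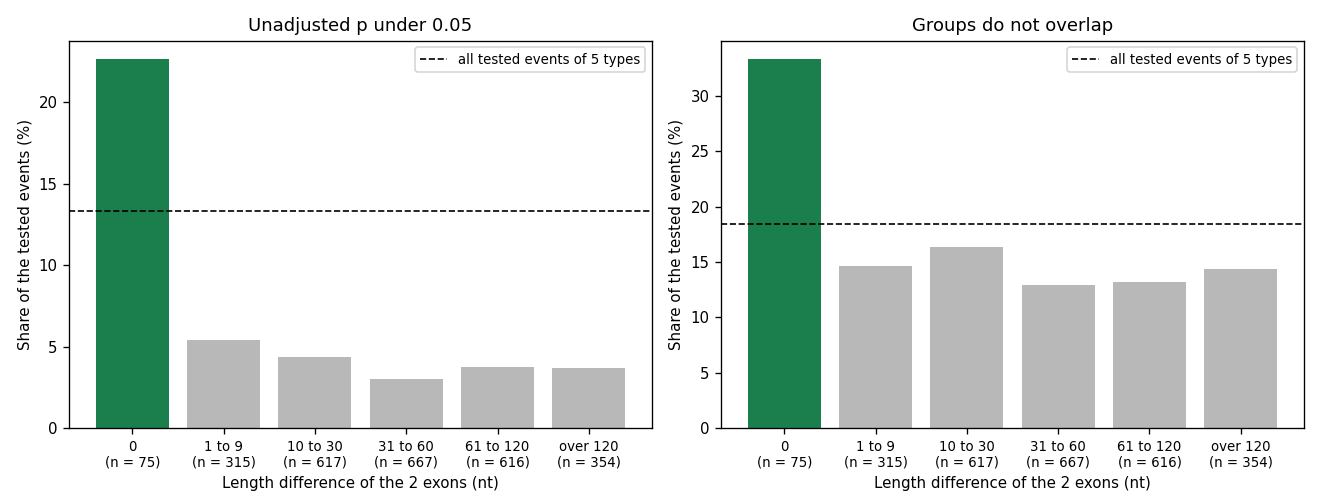
Share of tested events (%) with an unadjusted p under 0.05 (left) and with groups that do not overlap (right), by the length difference of the 2 exons (nt, with the number of tested events). Dashed lines give the shares over all tested events of 5 types, 13.3% and 18.4%. The equal-length events (green) stand above the line at 22.7% and 33.3%, and each class of unequal length (grey) stands below it.

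**Figure D3:**
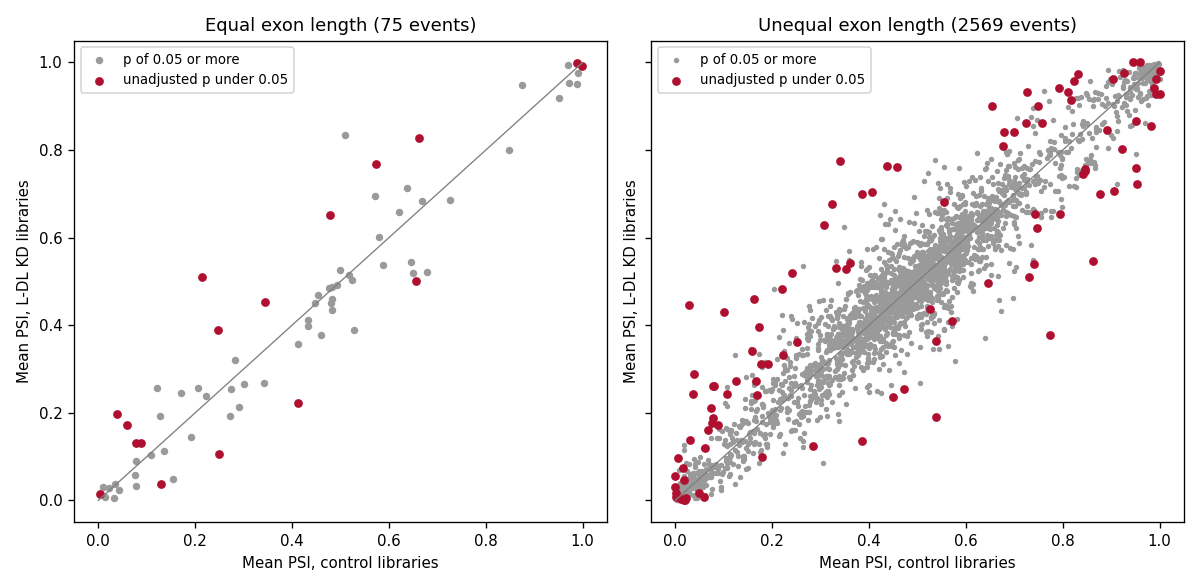
Mean PSI in the 3 L-DL KD libraries against mean PSI in the 3 control libraries, one point per tested event, for events of equal (left, 75) and unequal length (right, 2569). Red points have an unadjusted p under 0.05, and the line marks equal PSI. The unequal-length events form a dense cloud near 0.5 on both axes, and the equal-length events are spread from 0 to 1.

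Of 47 gene symbols known for mutually exclusive exons, 38 had a listed event and 37 a tested one. For each, the equal-length event with the most reads was taken, or else the event with the most reads. These are called known pairs below, but the event taken need not be the pair for which the gene is known. In 29 of the 38 no annotated transcript held both exons. An unadjusted p under 0.05 was found in 12 of 37 (8 higher, 4 lower), and the groups did not overlap in 16, shares of 32.4% and 43.2% beside 13.3% and 18.4% over all tested events. The median size of ΔPSI was 0.0481, beside 0.0297 over all tested events. The list was chosen with earlier results of these data known. All 37 events are also counted in the length classes above, 24 of them as equal-length, so these shares are not a separate observation. Mapk10, one of the 12, met the filter on its 3′ exon only through L-DL KD. No event was listed for Scn1a, Scn3a, Scn9a, Slc8a1, Glra2, Glra3, Tpm4, Macroh2a1 and Ptbp2, where Macroh2a1 is the newer symbol of H2afy, which was listed. In the following, "log2 odds ratio" compares the odds of the 5′ exon in L-DL KD with those in control, and every p is from edgeR's quasi-likelihood test.

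**Figure D4:**
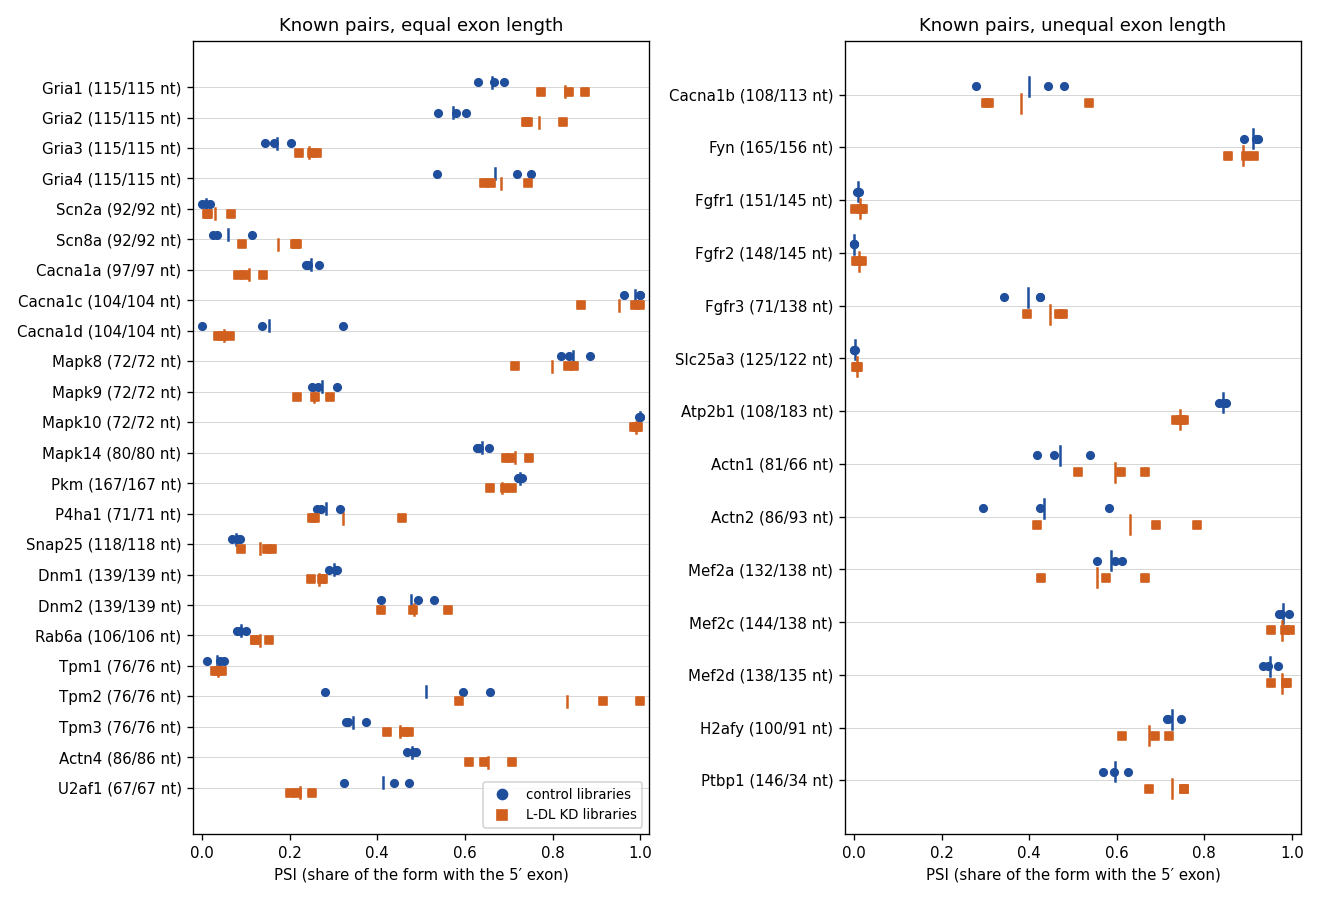
PSI in each control library (blue circles) and each L-DL KD library (orange squares) for the 38 events taken for the known genes. Vertical bars mark the group means, for pairs of equal (left) and unequal (right) exon length. The y axis names the gene with the lengths of its 5′ and 3′ exons, and the x axis is the share of the form with the 5′ exon. In Gria1 and Gria2 all L-DL KD libraries lie above all control libraries, and in Cacna1a and U2af1 all lie below.

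The AMPA receptor genes held the 2 lowest unadjusted p values of the equal-length events. In Gria2, the subunit that sets calcium permeability, the flop share was 0.601, 0.581 and 0.539 in the control libraries and 0.744, 0.739 and 0.825 in L-DL KD. The means were 0.574 ± 0.032 and 0.769 ± 0.048 (SD, n = 3), from 530 to 1084 counts per library. The lowest L-DL KD library lay above the highest control, with a log2 odds ratio of 1.31 (SE 0.26), an unadjusted p of 0.000331 and an adjusted p of 0.0685. In Gria1, the subunit most tied to activity-dependent insertion at synapses, flop made up 0.689, 0.631 and 0.666 of control and 0.774, 0.873 and 0.838 of L-DL KD transcripts. Here too the groups were apart, at 0.662 ± 0.029 and 0.828 ± 0.050 (SD, n = 3). The log2 odds ratio was 1.32 (SE 0.28), the unadjusted p 0.000456 and the adjusted p 0.0765. In Gria2 1 annotated transcript holds both exons, and in Gria1 none does. Both genes had an unadjusted p under 0.05 in 10 of 10 alternative analyses, and both passed an adjusted p of 0.05 under the stricter filter.

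Gria3 used flip for most transcripts. Its flop share was 0.164, 0.144 and 0.204 in control and 0.220, 0.250 and 0.263 in L-DL KD. These groups did not overlap, yet the unadjusted p was 0.0634 and the log2 odds ratio 0.65 (SE 0.32). In Gria4 flop was at 0.720, 0.537 and 0.750 in control and at 0.660, 0.644 and 0.744 in L-DL KD. Only 41 to 50 counts per library stood behind Gria4, the groups overlapped, and the unadjusted p was 0.931. The identity of the flip and flop exons was 68.7% in Gria1 and Gria2, 72.2% in Gria3 and 73.0% in Gria4. Total counts of Gria1, Gria2 and Gria3 were lower in L-DL KD (log2 fold changes -0.50, -0.54 and -0.36, adjusted p 0.00553, 0.00153 and 0.0134 in edgeR), while Gria4 had -0.12 (adjusted p 0.424). Of the 5 CA1 markers 4 were lower in the same libraries, and flip and flop use is known to differ between hippocampal fields. The part of this in the flop shares was not tested.

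Among sodium channels, the pair encodes part of a voltage sensor, with the 5′ exon known as the neonatal form and the 3′ exon as the adult form. In Scn8a, a sodium channel gene, the neonatal share was 0.026, 0.035 and 0.115 in control and 0.091, 0.216 and 0.212 in L-DL KD. The highest control lay above the lowest L-DL KD library, at 52 to 102 counts per library. The log2 odds ratio was 1.73 (SE 0.73) and ran from 1.37 to 2.66 when single libraries were left out. The unadjusted p was 0.034 (adjusted p 0.344), and the unadjusted p stayed under 0.05 in 6 of 10 alternatives. Scn2a used the adult exon nearly alone, with neonatal shares of 0, 0.019 and 0.009 in control and 0.013, 0.011 and 0.066 in L-DL KD (unadjusted p 0.174). Its value of 0 rested on 81 counts, which allows a share of up to 3.7%.

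In the calcium channel gene Cacna1a, which encodes the P/Q-type channel of synaptic terminals, the alternative exons lie in the region of the EF-hand-like motif. The 5′ exon made up 0.238, 0.266 and 0.243 of control and 0.139, 0.097 and 0.083 of L-DL KD transcripts. All 3 L-DL KD libraries were below all controls (0.249 ± 0.015 and 0.106 ± 0.030, SD, n = 3). The log2 odds ratio was -1.48 (SE 0.41), with an unadjusted p of 0.00381, an adjusted p of 0.158, and an unadjusted p under 0.05 in 10 of 10 alternatives. The 3′ exon of this pair is annotated as an exon of a transcript without a coding frame over it. In Cacna1c the 5′ exon held 0.962 to 1 of control and 0.865 to 1 of L-DL KD transcripts (unadjusted p 0.288). Cacna1d rested on 25 to 51 counts, and its control libraries alone spanned 0 to 0.323 (unadjusted p 0.171). The listed Cacna1b event had exons of 108 and 113 nt that share 5 annotated transcripts, and its PSI of 0.279 to 0.480 in control overlapped that of 0.302 to 0.536 in L-DL KD.

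Synaptic vesicle and membrane genes showed smaller differences. Snap25 is known to shift from the 5′ to the 3′ exon as the brain matures. The 5′ exon share was 0.087, 0.068 and 0.080 in control and 0.089, 0.159 and 0.147 in L-DL KD, on 2271 to 6006 counts. One L-DL KD library lay just above the controls and the other two well above (log2 odds ratio 0.80, SE 0.27, unadjusted p 0.0125, adjusted p 0.251, under 0.05 in 6 of 10 alternatives). Snap25 counts as a whole were lower in L-DL KD (1334 ± 19.8 CPM in control against 664 ± 84.5 CPM, SD, n = 3; adjusted p 0.000369 in edgeR). In Rab6a, a small GTPase of Golgi traffic, the 5′ exon encodes the Rab6A′ form. Its share was 0.087, 0.080 and 0.099 in control and 0.121, 0.152 and 0.121 in L-DL KD, groups that did not overlap (unadjusted p 0.0218, under 0.05 in 4 of 10 alternatives).

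The dynamin genes, whose products pinch vesicles from the membrane, moved little. Dnm1 had a 5′ exon share of 0.290, 0.305 and 0.308 in control and 0.248, 0.276 and 0.274 in L-DL KD, on 1394 to 2984 counts. Every L-DL KD value was below every control, but the difference of -0.035 gave an unadjusted p of 0.253. Dnm2, the form found in all tissues, had 0.408 to 0.529 in control and 0.408 to 0.562 in L-DL KD (unadjusted p 0.893).

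Among kinases and growth factor receptors, the JNK genes differed in their 5′ exon shares, which were not tested against each other. Mapk10 (JNK3, the neuronal JNK) used the 5′ exon nearly alone, at 0.999, 1 and 0.998 in control and 0.987, 0.992 and 0.994 in L-DL KD. The 3′ exon had 1, 0 and 1 counts in control and 7, 4 and 2 in L-DL KD, and the 0 allows a share of up to 0.414%. The filter of at least 1 count of each form is a mean over both groups, and this exon met it only through L-DL KD. The ΔPSI was -0.008, with an unadjusted p of 0.00522 and an adjusted p of 0.182. Mapk8 (JNK1) had 0.820 to 0.885 in control and 0.713 to 0.849 in L-DL KD (unadjusted p 0.329), and Mapk9 (JNK2) had 0.251 to 0.307 and 0.216 to 0.291 (unadjusted p 0.678). Mapk14 (p38α) had 0.654, 0.628 and 0.633 in control and 0.746, 0.694 and 0.702 in L-DL KD, without overlap but with an unadjusted p of 0.151. The tyrosine kinase Fyn, at 0.890 to 0.923 in control and 0.854 to 0.914 in L-DL KD, overlapped (unadjusted p 0.321). Fgfr1 and Fgfr2 used the 3′ exon, known as IIIc, almost alone. The 5′ exon IIIb of Fgfr1 was at 0.006 to 0.012 in control and 0.003 to 0.021 in L-DL KD. In Fgfr2 it was not counted in any control library (0 of 115 to 146 counts, which allows up to 2.05% to 2.61%), it was at 0.005 to 0.019 in L-DL KD, and the event did not reach the filter. The listed Fgfr3 event joined exons of 71 and 138 nt that share 7 transcripts (unadjusted p 0.365).

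Among metabolic and transport genes, Pkm and Slc25a3 had deep counts. In Pkm, the pyruvate kinase gene, the 5′ exon gives the M1 enzyme of differentiated tissue and the 3′ exon the M2 enzyme. The M1 share was 0.724, 0.731 and 0.722 in control and 0.658, 0.692 and 0.706 in L-DL KD, on 4057 to 4626 counts per library. All L-DL KD values were lower, by 0.04 on average, and the L-DL KD libraries varied more than the controls (SD 0.025 and 0.0047, n = 3). The unadjusted p was 0.203, and no alternative brought it under 0.05. In Slc25a3, the mitochondrial phosphate carrier, the 5′ exon is the heart and muscle form. It made up 0.001, 0.001 and 0.003 of control and 0.006, 0.005 and 0.008 of L-DL KD transcripts, a ΔPSI of 0.005 with a log2 odds ratio of 2.08 (SE 0.49), an unadjusted p of 0.00106 and an adjusted p of 0.103. Atp2b1, a plasma membrane calcium pump, was listed with exons of 108 and 183 nt that share 4 annotated transcripts. Its PSI was 0.834, 0.851 and 0.843 in control and 0.754, 0.747 and 0.736 in L-DL KD, with an unadjusted p of 0.00696 (adjusted p 0.204). P4ha1, a prolyl hydroxylase subunit, had 0.261 to 0.314 in control and 0.250 to 0.457 in L-DL KD (unadjusted p 0.571).

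In the cytoskeleton, 2 known pairs had an unadjusted p under 0.05, and both had a higher 5′ exon share in L-DL KD. Actn4, a non-muscle α-actinin, had a 5′ exon share of 0.488, 0.467 and 0.480 in control and 0.608, 0.707 and 0.643 in L-DL KD. The groups were wide apart (0.478 ± 0.011 and 0.653 ± 0.050, SD, n = 3), with an unadjusted p of 0.0121, an adjusted p of 0.249, and an unadjusted p under 0.05 in 9 of 10 alternatives. Tpm3, a tropomyosin of the actin cytoskeleton, had 0.375, 0.329 and 0.332 in control and 0.461, 0.423 and 0.473 in L-DL KD (unadjusted p 0.0143, adjusted p 0.265, under 0.05 unadjusted in 6 of 10 alternatives). In Tpm1 the 5′ exon was rare in both groups, at 0.012 to 0.050 in control and 0.028 to 0.046 in L-DL KD (unadjusted p 0.738). Tpm2 rested on 22 to 47 counts (0.280 to 0.656 against 0.585 to 1, unadjusted p 0.0626). Actn1 had 0.417 to 0.538 against 0.512 to 0.664 (unadjusted p 0.083), and Actn2, at 9 to 40 counts, 0.296 to 0.582 against 0.419 to 0.783 (unadjusted p 0.251). The exons of the listed Actn2 event share 2 annotated transcripts.

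Among the known nuclear pairs only that of U2af1 had an unadjusted p under 0.05. Its exons share 2 annotated transcripts, and the 3′ exon gives the common form of the protein, which recognizes the end of the intron. The 5′ exon share was 0.324, 0.439 and 0.473 in control and 0.252, 0.216 and 0.200 in L-DL KD. No L-DL KD library reached the lowest control (0.412 ± 0.078 and 0.223 ± 0.027, SD, n = 3). The log2 odds ratio was -1.30 (SE 0.35), the unadjusted p 0.00298, the adjusted p 0.144, and the unadjusted p was under 0.05 in 10 of 10 alternatives. The total count of U2af1 had a log2 fold change of 0.11 (SE 0.09, adjusted p 0.398 in edgeR).

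The MEF2 transcription factors, which govern neuronal survival and activity-dependent genes, had 5′ exon shares of 0.555 to 0.613 in control and 0.426 to 0.665 in L-DL KD for Mef2a, of 0.971 to 0.994 and 0.951 to 0.994 for Mef2c, and of 0.935 to 0.968 and 0.952 to 0.990 for Mef2d (unadjusted p 0.672, 0.881 and 0.0571). H2afy encodes the histone variant macroH2A1, and its 5′ exon of 100 nt held 0.714 to 0.746 in control and 0.611 to 0.720 in L-DL KD (unadjusted p 0.281). The listed Ptbp1 event joined exons of 146 and 34 nt that share 4 transcripts. Its PSI was 0.593, 0.569 and 0.625 in control and 0.674, 0.754 and 0.753 in L-DL KD (unadjusted p 0.101).

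Outside the known list, 4 more equal-length pairs were among the 5 largest differences in each direction. The selection took only events with an unadjusted p under 0.05 and groups that do not overlap. Only 5 equal-length falls had such a p, so all of them are included. Atp8a1, a phospholipid flippase, had the largest upward difference of equal length in this selection, with a 5′ exon share of 0.318, 0.182 and 0.140 in control and 0.505, 0.354 and 0.675 in L-DL KD (unadjusted p 0.00648, adjusted p 0.2). Slc39a14, a zinc, iron and manganese importer whose paired exons form part of the transport core, had 0.056, 0.027 and 0.034 in control and 0.276, 0.099 and 0.219 in L-DL KD (unadjusted p 0.00429, adjusted p 0.166). In both genes, selected for groups that do not overlap, the L-DL KD libraries were the more variable. Ate1, the arginyltransferase of the N-degron pathway, went from 0.672, 0.656 and 0.637 to 0.566, 0.460 and 0.477, at an unadjusted p of 0.0436 that was under 0.05 in 4 of 10 alternatives. Ints10, an Integrator subunit, went from 0.141, 0.127 and 0.122 to 0.023, 0 and 0.087, where the 0 rested on 63 counts and allows up to 4.76% (unadjusted p 0.0379, under 0.05 in 5 of 10 alternatives). The exons of Ate1 and of Ints10 share 1 annotated transcript each.

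The remaining 3 equal-length events with an unadjusted p under 0.05 are named after their values were seen. In Eno1 and Pfkp, both glycolytic enzymes, 1 exon was used nearly alone. The 3′ exon of Pfkp met the filter of at least 1 count of each form only through the control libraries. The 5′ exon of Eno1 was at 0.003, 0.006 and 0.001 in control and 0.014, 0.018 and 0.008 in L-DL KD (unadjusted p 0.00187), and that of Pfkp was at 0.981, 0.992 and 0.992 in control and 0.996, 1 and 1 in L-DL KD (unadjusted p 0.00907), where the absent 3′ exon may still have a share of up to 0.540% and 0.767%. Acsl6, an acyl-CoA synthetase of the brain, had 0.294, 0.218 and 0.232 in control and 0.310, 0.390 and 0.470 in L-DL KD (unadjusted p 0.0223, under 0.05 in 4 of 10 alternatives). Its exons of 78 nt lie 57 nt apart.

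Among the largest differences selected, those of unequal pairs had the larger ΔPSI values, mostly on thinner counts. They were picked from 2569 tested events, against 75 of equal length. Over all tested events the median size of ΔPSI was 0.0339 for unequal and 0.0399 for equal length. Unc13a, which primes synaptic vesicles for release, had the largest upward difference of the selection. Its 5′ exon of 93 nt, annotated outside the coding frame, made up 0.052, 0 and 0.031 of control and 0.342, 0.490 and 0.510 of L-DL KD transcripts relative to the 3′ exon of 30 nt. Only 23 to 63 counts per library were available, and the control value of 0 allows up to 13.0%. The log2 odds ratio was 4.59 (SE 0.90), the unadjusted p 0.000243 and the adjusted p 0.0595, and without the filter the event passed an adjusted p of 0.05. Coq8b, a kinase-like protein of coenzyme Q synthesis, went from 0.170, 0.082 and 0.047 to 0.436, 0.420 and 0.436 (unadjusted p 0.000977, adjusted p 0.102), and Clk4, a kinase that phosphorylates SR splicing factors, from 0.404, 0.199 and 0.318 to 0.697, 0.503 and 0.687 (unadjusted p 0.00275, adjusted p 0.142). These 2 genes had an unadjusted p under 0.05 in 10 of 10 alternatives, and their exons share 5 annotated transcripts in Coq8b and 3 in Clk4. Gtpbp10 (9 to 33 counts, unadjusted p 0.037, under 0.05 in 4 of 8 alternatives) and the pseudogene Ppp4r1l-ps (13 to 29 counts, unadjusted p 0.0269, under 0.05 in 4 of 7 alternatives) had group means of 0.438 and 0.764, and of 0.324 and 0.678. Shared annotated transcripts were also found for Unc13a (1), Gtpbp10 (2) and Ppp4r1l-ps (4), so PSI in these 5 genes does not show that the exons exclude each other.

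The largest downward difference of the selection was in P4ha2. Its 5′ exon made up 0.878, 0.856 and 0.588 of control and 0.287, 0.469 and 0.377 of L-DL KD transcripts. The means were 0.774 ± 0.162 and 0.377 ± 0.091 (SD, n = 3), and the event was selected for groups that do not overlap. It had a log2 odds ratio of -2.60 (SE 0.70), an unadjusted p of 0.0028 and an adjusted p of 0.142. P4ha2 counts as a whole were higher in L-DL KD (log2 fold change 0.83, SE 0.12, adjusted p 0.00207 in edgeR). Smarce1, a subunit of the BAF chromatin remodeller, went from 0.496, 0.672 and 0.448 to 0.199, 0.139 and 0.235 (unadjusted p 0.00302). Sun1, a protein of the nuclear envelope, went from 0.866, 0.797 and 0.924 to 0.529, 0.671 and 0.442 (unadjusted p 0.00526). In Cask, a synaptic scaffold, the means were 0.386 and 0.136 (unadjusted p 0.018, under 0.05 in 8 of 10 alternatives), and in Ppp3cc, a calcineurin subunit, 0.473 and 0.255 (unadjusted p 0.0449, under 0.05 in 5 of 10 alternatives). None of these passed an adjusted p of 0.05 at the main filter. Unlike those of P4ha2, the exons share annotated transcripts in Smarce1 (1), Sun1 (2), Cask (1) and Ppp3cc (3).

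**Figure D5:**
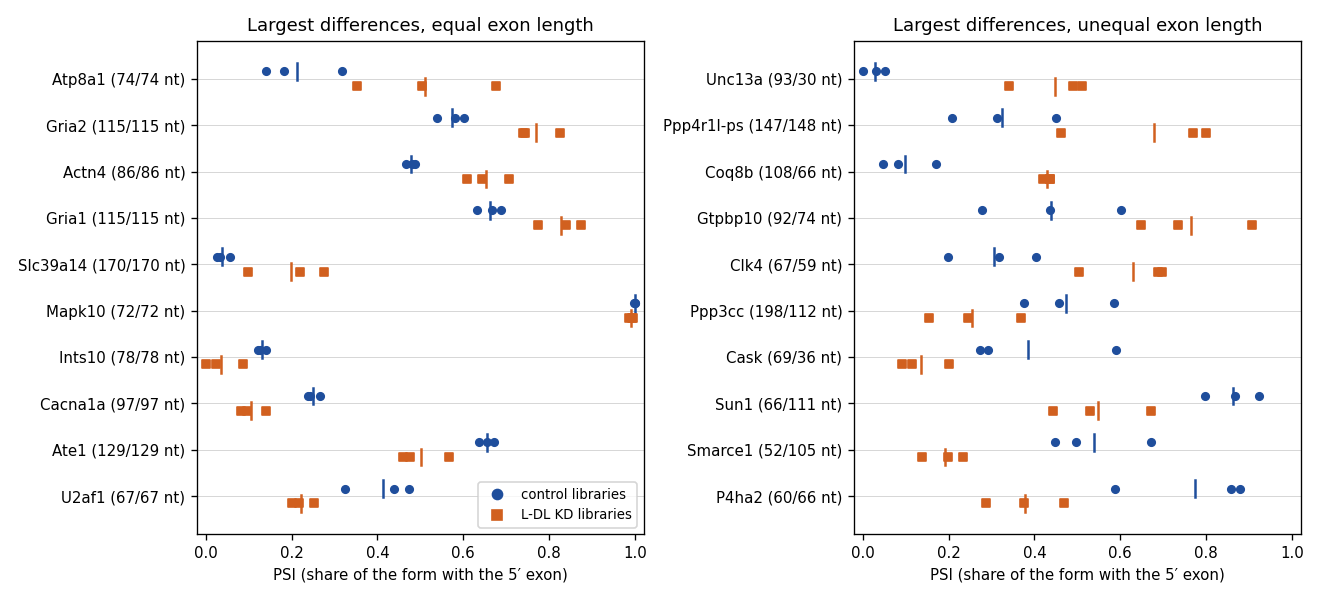
PSI in each control (blue circles) and L-DL KD library (orange squares) for the 5 largest upward and 5 largest downward differences of equal-length (left) and unequal-length pairs (right), among tested events with an unadjusted p under 0.05 and groups that do not overlap, 1 event per gene. The y axis names the gene with its exon lengths, the x axis is the share of the form with the 5′ exon, and bars mark group means. The events were selected for non-overlap, so the separation of the groups is not a finding, and the sizes range from -0.397 in P4ha2 to 0.420 in Unc13a.

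The events with the lowest p values among unequal pairs were partly others, named after their values were seen. Tpd52, a vesicle traffic protein, had 0.853, 0.762 and 0.765 in control and 0.935, 0.940 and 0.952 in L-DL KD for exons of 102 and 42 nt, with an unadjusted p of 0.000132 and an adjusted p of 0.0507. In Rbfox1, itself a neuronal splicing factor, a brain exon of 40 nt competes with a muscle exon of 43 nt. The brain exon made up 0.990, 0.990 and 0.983 of control and 0.960, 0.940 and 0.925 of L-DL KD transcripts, on 381 to 694 counts. No value overlapped between groups (unadjusted p 0.000151, adjusted p 0.0546). Epn1, an endocytic adaptor, went from a mean of 0.002 to 0.016 (adjusted p 0.0569), and Srgap3, a regulator of neurite growth, from 0.172 to 0.396 (adjusted p 0.0961). The exons share 2 annotated transcripts in Tpd52 and 1 in Epn1.

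None of the 5 genes with the most alike exons was among the largest differences selected above. Some of these 5 had few counts, and a relation of identity to ΔPSI was not tested. The 5 tested genes with the highest ungapped identity were Gprasp1 (98.7%), Nlrc5 (97.6%), Scn8a (79.3%), Cacna1d (78.8%) and Scn2a (78.3%). For exons as alike as those of Gprasp1 and Nlrc5, short reads may align to either exon, and their values are uncertain. Gprasp1, a receptor sorting protein, had 0.5, 0.082 and 0.287 in control and 0.302, 0.263 and 0.074 in L-DL KD. Nlrc5, a regulator of MHC class I genes, had 0.441 to 0.583 in control and 0.438 to 0.565 in L-DL KD, and its exons share 2 annotated transcripts.

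The genes that hold the pairs were also compared by their total counts. Of 2027 host genes 2004 were tested and 778 passed an adjusted p of 0.05 in edgeR (38.8%), with 300 higher and 478 lower in L-DL KD, against 30.5% of all genes. Of the 80 host genes of equal-length pairs, 35 passed (43.8%), 8 higher and 27 lower. The median log2 fold change was -0.14 for the hosts of equal-length pairs, -0.05 for all hosts and 0.01 for all genes.

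Of 22 splicing factors known to act on such exons, 6 were higher and 5 lower in L-DL KD at an adjusted p of 0.05 in edgeR, with the same directions under both other scalings tried, beside 15.6% higher and 15.0% lower among all genes. The Rbfox family, which in neurons promotes or represses exons by position, was lower throughout, with log2 fold changes of -0.46 (SE 0.09) for Rbfox1, -0.90 (SE 0.06) for Rbfox2 and -1.35 (SE 0.10) for Rbfox3, the last of which is also a neuronal marker (NeuN). Ptbp1, the repressor of neuronal exons in non-neuronal cells, was higher at 0.58 (SE 0.11), and its neuronal counterpart Ptbp2 lower at -0.35 (SE 0.07). Ptbp3 (0.47, SE 0.10), Hnrnpf (0.44, SE 0.09), Rbm24 (0.80, SE 0.15), Nova1 (0.27, SE 0.07) and Qk (0.21, SE 0.06) were higher, and the RNA editing enzyme Adarb1 was lower (-0.27, SE 0.06). Hnrnpa1 and Hnrnpa2b1, which with Ptbp1 are the known repressors of the M1 exon of Pkm, and Hnrnph1 had log2 fold changes of -0.06, -0.06 and -0.03 with adjusted p of 0.520, 0.614 and 0.894. These levels move with the neuronal and microglial markers given above, and their part in the exon choice was not tested.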

How the data were processed

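Poly(A) RNA was sequenced as read pairs of 150 nt. Per the submitters' processing notes, HISAT2 2.1.0, Bowtie 1.1.2 and HTSeq 0.6.1 were used on mm10, and the study's methods name GRCm38 with Ensembl release 90. The authors deposited raw counts per gene (16052529 to 17913064 per library) and the rMATS 4.1.0 table of junction read counts per event, with effective lengths, the authors' PSI and the authors' own p-values and PSI differences. The latter were not used. In that table group 1 was L-DL KD, as the sign given in the methods implies, and each of its libraries correlated better with gene-count columns of its own group than with those of the other over 5171 genes. The table does not number its libraries, so they are taken as listed.

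PSI recomputed from counts and effective lengths differed from the deposited one by at most 0.0005. In 2870 of 2870 events whose lengths can tell, the inclusion form held the 5′ exon. Events of all types (mean count of at least 20 per library and 1 per form) were tested with edgeR 4.0.16 (quasi-likelihood) on inclusion and skipping counts with a term per library, and p-values were Benjamini-Hochberg adjusted over 18829 events. Gene counts (count filter of 10 in 3 libraries, TMM scaling) were tested likewise. DESeq2 1.42.0, limma 3.58.1 (pseudocount 0.5), other filters (50 per library and 5 per form, or none), 1 event per pair and each library left out were the alternatives. With 3 libraries per group an exact permutation test of a single PSI cannot go below 0.1, so none is printed, and p-values measure the spread between these libraries.

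Events were named by rule: known pairs; those with an adjusted p under 0.05; the 5 largest differences in each direction per length class among events with an unadjusted p under 0.05 and non-overlapping groups; and the 5 most alike equal-length pairs. Members and lists were chosen with earlier results of these data known. Exons were matched to GENCODE transcripts of GRCm38 by coordinates; aligned identity is matches over alignment columns.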

Additional observations from a re-analysis of the deposited data

How the results depend on the processing

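The number of mutually exclusive events with an adjusted p under 0.05 was 0 with edgeR, 32 under the stricter filter, 4 with DESeq2 and 5 without a filter, while leaving out single libraries gave 0 to 2. Fewer events were tested under the stricter filter (8584 of all types, 504 of which passed). Equal-length events with an unadjusted p under 0.05 numbered 11 to 17 when single libraries were left out, with 11 without the second-listed control library. The median control PSI of equal-length events was 0.433 and became 0.345 under the stricter filter, 0.450 with 1 event per pair, and 0.399 to 0.433 with single libraries left out. The median size of ΔPSI of equal-length events (0.0399) became 0.0481 under the stricter filter and 0.0414 to 0.0529 with libraries left out, and that of unequal-length events (0.0339) became 0.0316 and 0.0360 to 0.0386. Events whose groups do not overlap rose from 390 to between 619 and 671 with a library left out, since fewer libraries have to be separated. Host genes past the adjusted threshold numbered 778, and 508 to 966 with a library left out, the lowest without control replicate 3. With a replicate block they numbered 675. The block used the replicate numbers of the gene counts, whose same-numbered libraries did not deviate together (correlations 0.0896, 0.271 and -0.233). No paired analysis was possible for exon choice because the junction table gives no replicate numbers, so the exon choice has no blocked value. Of the 60 tested pairs named, 16 passed an adjusted p of 0.05 under the stricter filter, 5 without a filter, 4 with DESeq2 and 2 without the first-listed L-DL KD library. Named pairs with an unadjusted p under 0.05 kept their direction in each refit that could be run for them, which was 7 of 10 for Ppp4r1l-ps, 8 for Gtpbp10 and 9 for Unc13a, Mapk10, Pfkp and Sun1, where the others lost the event to a filter. Depth limits the values of pairs with few counts, such as Gtpbp10 and Actn2.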
